A study of Mus musculus with 57 samples.

Results

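The genes described here are 10 regulators of necroptosis and apoptosis, chosen by symbol: Zbp1, Ripk1, Ripk3, Mlkl, Casp8, Bcl2a1b, Bcl2a1d, Mcl1, Bcl2l11 and Bax. All 10 were found among the 50565 genes of the table of a first experiment, called the sex experiment, and among the 53278 genes of a second, called the LPS experiment. All 10 also passed the filter on low counts in both. RNA came from CD11b-positive brain cells, labelled microglia, of wild-type mice (WT) and of littermates deficient in P2RY12 (KO), a nucleotide receptor abundant on resting microglia. The sex experiment held adult animals: 4 WT and 5 KO males, and 4 WT and 5 KO females. In the LPS experiment each library was labelled WT or KO and either LPS, lipopolysaccharide given into the peritoneum at 1 mg/kg, or ns, a term the labels do not define. It had 8 WT ns, 9 WT LPS, 8 KO ns and 8 KO LPS libraries. The KO allele, the sex and age of the LPS-experiment animals and the time from injection to collection are not given in the sources used here. Nothing states that its libraries are separate animals, so p-values there measure the spread between libraries. Selection by CD11b also retains other myeloid cells of the brain.

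Necroptosis is a lytic form of cell death. The kinases RIPK1 and RIPK3 form a complex, RIPK3 phosphorylates the pseudokinase MLKL, and MLKL then breaches the plasma membrane. ZBP1, an interferon-induced sensor of left-handed nucleic acids, can engage RIPK3 directly, and caspase-8 cleaves the RIP kinases and so restrains this route while it also starts apoptosis from death receptors. In the mitochondrial route of apoptosis, BAX permeabilises the outer membrane, BH3-only proteins such as BIM (the product of Bcl2l11) promote this, and MCL-1 and the A1 proteins (products of the Bcl2a1 genes) oppose it. Microglia, like other macrophages, depend on such brakes when stimulated through Toll-like receptors.

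The libraries were checked against their labels before the genes were compared. P2ry12 was between 3006 and 5927 CPM (a gene's counts relative to the scaled total of its library) in WT animals of the sex experiment and between 309.2 and 526.2 in KO animals. Totals ran from 58.54 to 318.5 M counts per animal there and from 15.91 to 168.4 M per library in the LPS experiment. In the LPS experiment the 4 WT libraries of library number 2 went against their treatment labels. WT ns 1 and WT ns 5 had 1783 and 2488 CPM of the acute-phase gene Saa3, while WT LPS 1 and WT LPS 6 had 1.59 and 3.198, and P2ry12 was reversed in the same way. These 4 libraries are shown apart, and results that rest on a WT group are also given with every library in its labelled group. WT LPS 8 and WT LPS 9 were nearly identical and were summed, which leaves 28 samples: 6 WT ns, 6 WT LPS, 8 KO ns and 8 KO LPS. Within these, KO ns 5, KO ns 6, KO LPS 5 and WT LPS 7 correlated with their own group at a median r of only 0.857 to 0.938, against 0.977 to 0.993 for the other 24. The same 4 libraries had 2.69% to 8.55% of their counts in mitochondrial genes, against 0.787% to 1.81%, so results are also given without them. Of the libraries shown apart, WT LPS 6 and WT ns 5 had 7.46% and 3.03% in mitochondrial genes, and WT LPS 1 and WT ns 1 had 1.31% and 1.36%. The microglial markers were abundant in every group, with a sum of 16550 CPM or more per library.

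Of the 10 genes, 7 rose and 1 fell with LPS in WT, and 6 rose and 1 fell in KO (edgeR quasi-likelihood test, adjusted p under 0.05). Across all 16088 genes tested, 30.9% passed in WT and 28.9% in KO, and 15% and 13.4% passed as higher. The median log2 fold change of the 10 was 0.99 in WT and 0.60 in KO, against -0.01 and -0.02 over all genes. Zbp1, Ripk1, Ripk3, Bcl2a1d and Mcl1 rose in both genotypes, and Bcl2l11 fell in both. In RNA from a pool of cells, fewer cells of a type and less RNA per cell cannot be told apart. When KO ns 5, KO ns 6, KO LPS 5 and WT LPS 7 were left aside, all 10 passed in both genotypes, 8 higher and 2 lower, with 54.1% and 54.8% of all genes passing. With every library in its labelled group, 0 of the 10 and 0% of all genes passed in WT, although 3605 genes had an unadjusted p under 0.05, and 6 rose and 1 fell in KO, with 22.3% of genes passing and 10.3% passing as higher. LPS and ns groups did not overlap for 7 of the 10 genes in WT, against 24.8% of all genes, and for 3 in KO, against 7.64%.

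**Figure D1:**
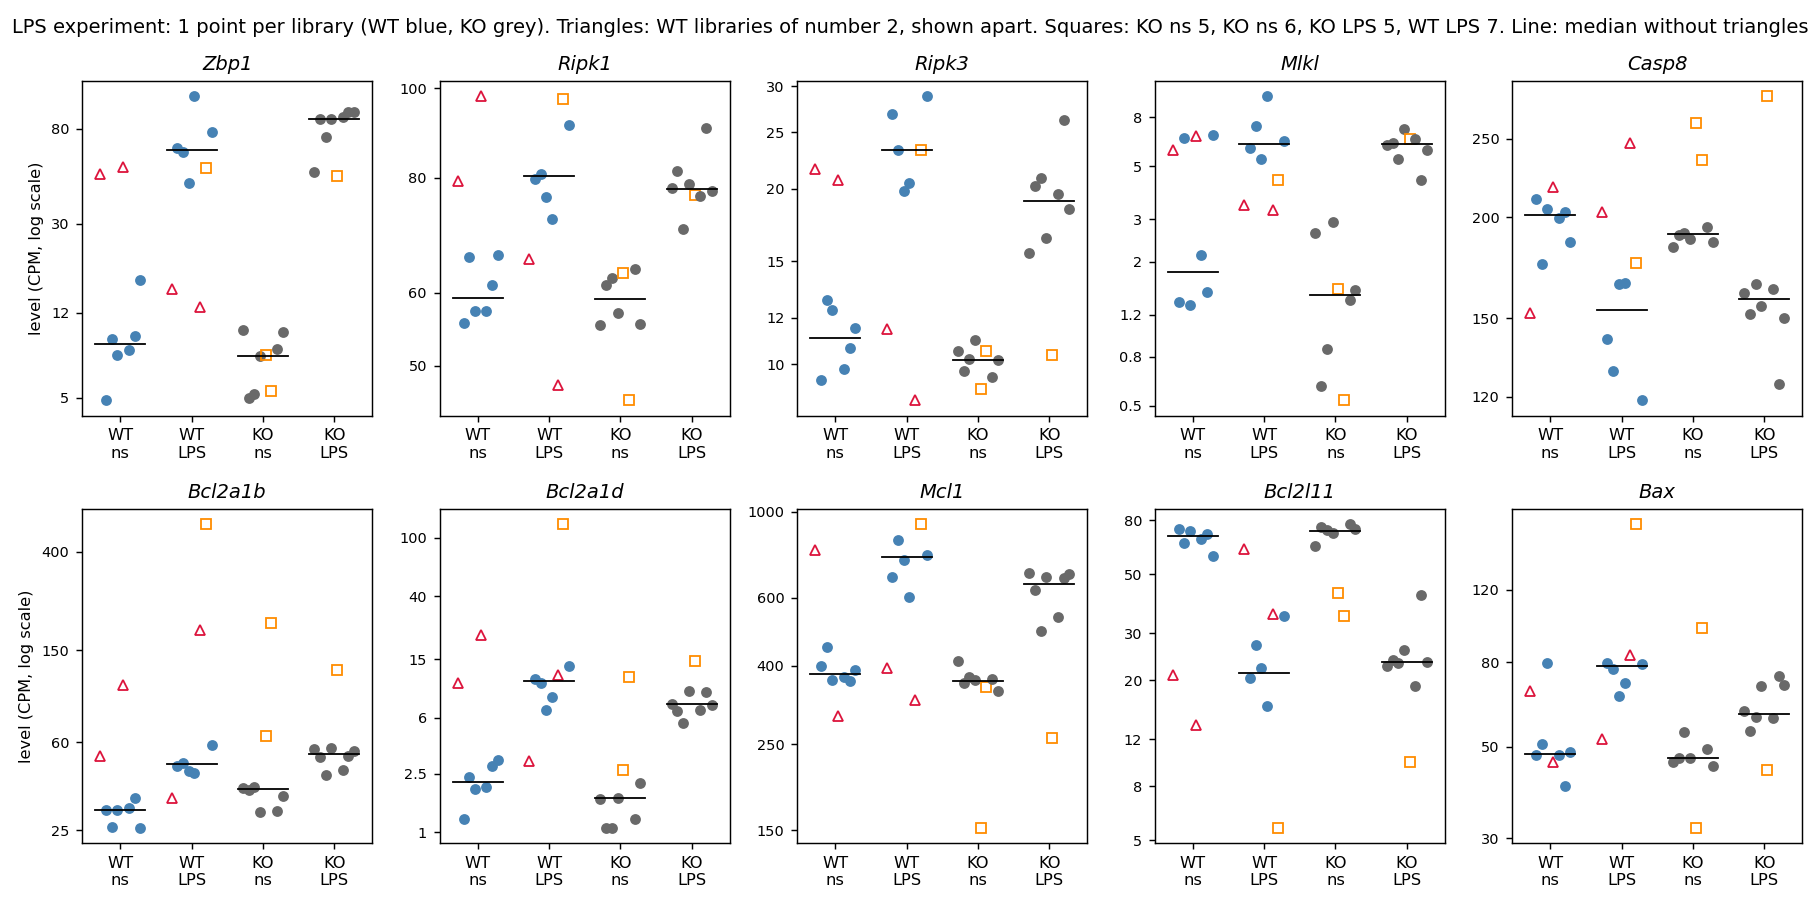
Level of each gene in CPM (log axis) in every library of the LPS experiment, with 1 point per library, the median of each group as a line, the 4 WT libraries of number 2 as red triangles and KO ns 5, KO ns 6, KO LPS 5 and WT LPS 7 as orange squares. Zbp1 separates LPS from ns in both genotypes (at least 45.75 against at most 16.86 CPM, triangles aside), and the triangles lie near the WT group of the opposite treatment label for Zbp1 and Ripk3.

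Zbp1, on chromosome 2 (GRCm39, 173048405 to 173060715, minus strand), had the largest rise of the 10 genes in KO. In WT ns it was at 4.871 CPM in the lowest, 8.68 in the median and 16.86 in the highest library. In WT LPS the lowest was 45.75, the median 64.33 and the highest 111.8 CPM. All 6 LPS libraries were above all 6 ns libraries. The log2 fold change was 2.90 ± 0.26 (SE, adjusted p 4.716e-09), a 7.45-fold rise. In KO ns Zbp1 ran from 5.008 through a median of 7.72 to 10.02 CPM, and in KO LPS from 49.21 through 88.39 to 94.88. Again no library of one treatment lay inside the range of the other, and the log2 fold change was 3.41 ± 0.23 (adjusted p 1.938e-11), a 10.7-fold rise. Apart stood WT ns 1 and WT ns 5 with 50.21 and 54.13 CPM, and WT LPS 1 and WT LPS 6 with 15.41 and 12.79. With those libraries in their labelled groups the WT value was 1.47 ± 0.43 (adjusted p 0.105). Zbp1 was called in both genotypes within library set 1 alone and within set 2 alone, at 3.02 and 2.82 in WT and at 3.47 and 3.41 in KO.

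Ripk1, the kinase that acts first in the complex, lies on chromosome 13 (GRCm39, 34181072 to 34219153, plus strand) and rose by a small and even amount. In WT ns it was at 55.68, 59.22 and 65.87 CPM (lowest, median, highest), and in WT LPS at 72.07, 80.28 and 97.39. In KO ns the same values were 45.85, 59.1 and 63.64, and in KO LPS 70.4, 77.7 and 90.68. The treatments did not overlap in either genotype. The log2 fold change was 0.45 ± 0.11 in WT (adjusted p 0.001825) and 0.44 ± 0.09 in KO (adjusted p 0.0005916). The 4 libraries shown apart read 79.39 and 98.06 CPM for WT ns 1 and WT ns 5, and 65.28 and 47.65 for WT LPS 1 and WT LPS 6. With them in their labelled groups the WT value was 0.18 ± 0.13 (adjusted p 0.4097). In the sex-experiment table, where whole gene spans were counted, Ripk1 overlaps Serpinb6a on the opposite strand over 5706 bases, and how reads in that overlap were assigned is not given in the sources used here.

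Because several of these genes rose together, the RefSeq promoters of the series' genes (300 bases, 250 before to 50 after a start, GRCm38.p6) were searched on both strands for 3 motifs: the interferon-stimulated response element core (GAAA, any 2 bases, GAAA), the gamma-activated site (TTCNNNGAA) and an NF-kappaB pattern (GGG, any 5 bases, CC). Promoters of another length, and those of a chromosome that carries none of these genes, were left out. The 3 motifs occur in 3.44%, 8.3% and 50.8% of the 32851 promoters searched. One of the Ripk1 promoters, chr13:34002624-34002923 on the plus strand, holds a match to each of the first 2 close to the start. The windows are shown because they carry these matches, which are in capitals.
Ripk1, response element core, starting 5 bases before the start: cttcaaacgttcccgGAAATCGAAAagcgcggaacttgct
Ripk1, gamma-activated site, starting 11 bases before the start: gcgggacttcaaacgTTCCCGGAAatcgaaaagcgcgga
Ripk1, gamma-activated site, starting 108 bases before the start: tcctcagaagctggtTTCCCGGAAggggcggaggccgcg
The first 2 matches overlap by 3 bases. Zbp1 had no entry among the promoters used and was not searched. None of the 3 motifs was found in the windows of Ripk3, Mlkl, Casp8 or Bcl2a1d. The NF-kappaB pattern was found in those of Bcl2a1b, Mcl1, Bcl2l11 and Bax, and in 1 of the Ripk1 windows. The Bcl2a1d window ends in gggttc, the letters that open the Bcl2a1b match GGGTTCCTCC. It does not cover the rest of that site, so these 2 copies cannot be compared there. A match describes letters only, and at a share of 50.8% the last pattern is common.

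Ripk3, on chromosome 14 (GRCm39, 56022452 to 56026314, minus strand), encodes the kinase that phosphorylates MLKL. Its lowest, median and highest levels were 9.39, 11.11 and 12.86 CPM in WT ns and 19.84, 23.31 and 28.83 in WT LPS, with no overlap. In KO ns they were 9.05, 10.18 and 10.98, and in KO LPS 10.35, 19.04 and 26.22. In KO the lowest LPS library, KO LPS 5, lay among the ns libraries, and the other 7 were above all of them. Ripk3 rose by 1.10 ± 0.16 on the log2 scale in WT (adjusted p 7.827e-06) and by 0.87 ± 0.14 in KO (adjusted p 2.128e-05). WT ns 1 and WT ns 5 had 21.61 and 20.68 CPM, and WT LPS 1 and WT LPS 6 had 11.47 and 8.657, which gave 0.58 ± 0.21 in WT (adjusted p 0.1367) when all were kept in their labelled groups. In the sex-experiment table the predicted gene Gm32092 lies over the whole of Ripk3 on the opposite strand, so the counts of Ripk3 there are uncertain.

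Mlkl, the executioner of necroptosis, lies on chromosome 8 (GRCm39, 112037879 to 112065081, minus strand). In KO ns it was at 0.527 CPM in the lowest library, 1.45 in the median and 2.916 in the highest, and in KO LPS at 4.371, 6.18 and 7.108. All 8 LPS libraries were above all 8 ns libraries, and the log2 fold change was 1.99 ± 0.37 (adjusted p 0.0001613), a 3.96-fold rise. The 6 WT LPS libraries had a like range of 4.357 to 9.765 CPM. In WT ns, 4 libraries were between 1.317 and 2.132 CPM, while WT ns 3 had 6.515 and WT ns 8 had 6.731. The WT difference of 1.01 ± 0.41 did not pass (adjusted p 0.0642).

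WT ns 3 and WT ns 8 also had the highest summed level of 12 neutrophil markers in the 28 samples, 19770 and 18350 CPM, against 1850 to 5181 in the other 4 WT ns libraries and 1079 to 10300 in KO ns. In KO ns the highest Mlkl levels, 2.621 and 2.916 CPM, were in KO ns 1 and KO ns 4, whose marker sums were 8137 and 9307, but KO ns 6 had a sum of 10300 and the lowest Mlkl, 0.527. Monocyte marker sums were also highest in WT ns 3 and WT ns 8 among these 6 WT ns libraries, at 1868 and 1653 CPM, against 115.9 to 482.3 in the other 4. The 2 cell types cannot be told apart there. Whether neutrophil or monocyte RNA contributes to the Mlkl counts was not tested. With WT ns 3 and WT ns 8 left aside, Mlkl rose with LPS in WT by 2.05 ± 0.38 (adjusted p 0.0002716). Mlkl also passed in WT when KO ns 5, KO ns 6, KO LPS 5 and WT LPS 7 were left aside, at 1.11 ± 0.42 (adjusted p 0.03117). Shown apart, WT ns 1 and WT ns 5 had 5.835 and 6.661 CPM and WT LPS 1 and WT LPS 6 had 3.446 and 3.276. In their labelled groups these gave a WT value of 0.52 ± 0.37 (adjusted p 0.3895).

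Casp8, the caspase that restrains necroptosis and starts receptor-driven apoptosis, is on chromosome 1 (GRCm39, 58834398 to 58886662, plus strand). Its values pointed the other way from those of the necroptosis genes. In WT ns its lowest, median and highest levels were 175, 201.3 and 210.4 CPM, and in WT LPS 118.8, 153.4 and 175.4. In KO ns they were 183.8, 190.7 and 261.6, and in KO LPS 124.6, 158.6 and 282.2. Groups overlapped through WT LPS 7 in WT and through KO LPS 5, at 282.2 CPM, in KO, where the other 7 LPS libraries were below all 8 ns libraries. The log2 fold change was -0.40 ± 0.15 in WT (adjusted p 0.05122) and -0.27 ± 0.13 in KO (adjusted p 0.1444), so that Casp8 did not pass in either. With KO ns 5, KO ns 6, KO LPS 5 and WT LPS 7 left aside it fell in both, by 0.45 ± 0.08 in WT (adjusted p 6.615e-05) and by 0.30 ± 0.07 in KO (adjusted p 0.001665). It also passed in WT, at -0.39 ± 0.14, with only the WT groups in the fit (adjusted p 0.04656). WT ns 1 and WT ns 5 were at 152.3 and 218.1 CPM and WT LPS 1 and WT LPS 6 at 202.8 and 246.9, and with all of them in their labelled groups the WT value was -0.20 ± 0.15 (adjusted p 0.4048).

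**Figure D2:**
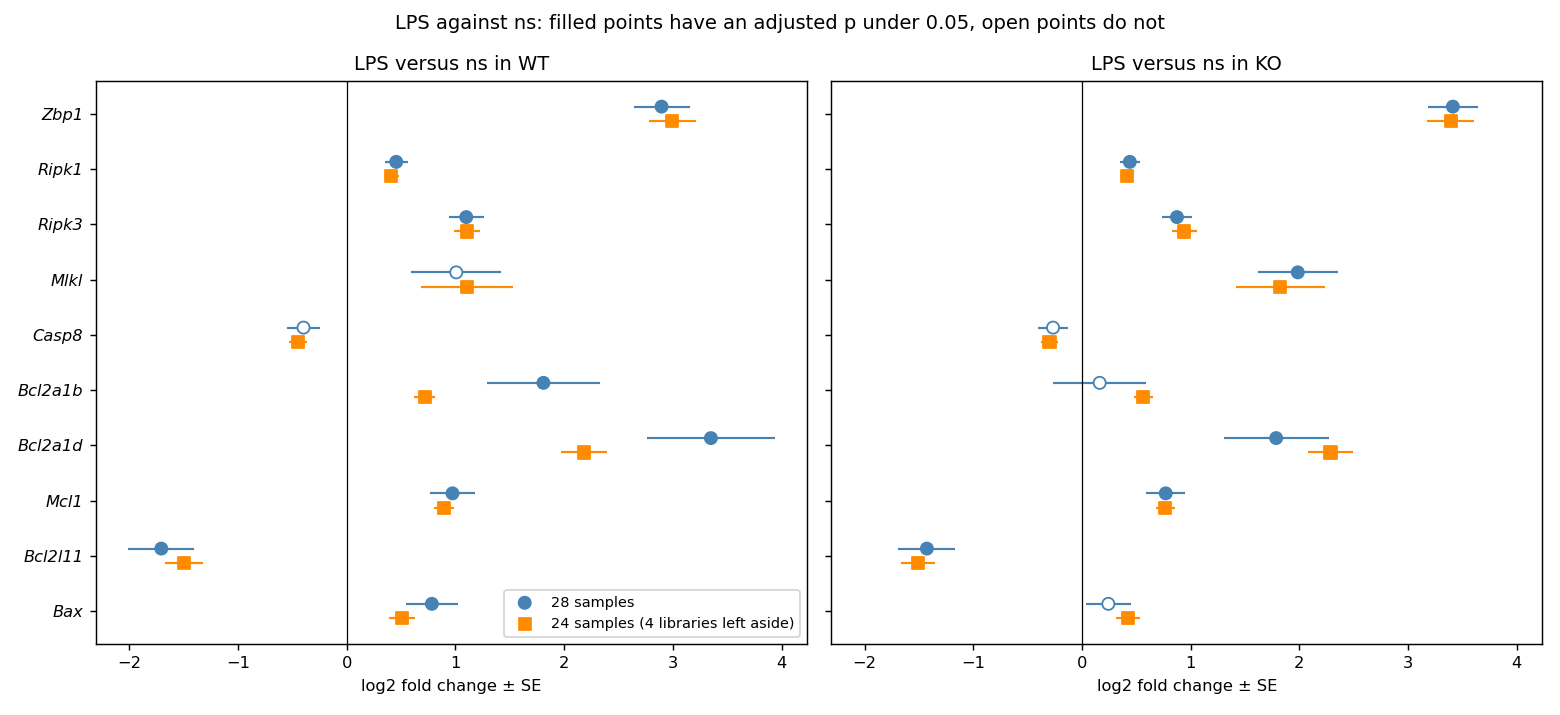
Log2 fold change of LPS against ns with its SE (horizontal bars) in WT (left) and KO (right), for 28 samples (blue circles) and with KO ns 5, KO ns 6, KO LPS 5 and WT LPS 7 left aside (orange squares), filled where the adjusted p is under 0.05. Without the 4 libraries all 10 genes are filled in both panels, and Bcl2a1b goes from 1.81 to 0.72 in WT and from 0.16 to 0.56 in KO.

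The 2 A1 genes among the 10, Bcl2a1b (chromosome 9, GRCm39, 89081326 to 89089891, plus strand) and Bcl2a1d (chromosome 9, 88605341 to 88613903, minus strand), are near copies of each other and of Bcl2a1a (chromosome 9, 88838973 to 88844469, plus strand). In the GENCODE M21 transcripts each has 519 coding bases, and these differ at 6 positions between b and d (98.84% identity), at 7 between a and d and at 11 between a and b. The first 120 coding bases are printed because they show how few letters can tell reads of the copies apart, and the capitals mark the positions at which the 3 copies differ.
Bcl2a1b: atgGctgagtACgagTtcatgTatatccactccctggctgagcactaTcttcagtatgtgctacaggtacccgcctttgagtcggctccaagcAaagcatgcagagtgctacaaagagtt
Bcl2a1a: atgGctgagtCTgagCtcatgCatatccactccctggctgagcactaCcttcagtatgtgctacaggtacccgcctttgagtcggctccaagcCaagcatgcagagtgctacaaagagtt
Bcl2a1d: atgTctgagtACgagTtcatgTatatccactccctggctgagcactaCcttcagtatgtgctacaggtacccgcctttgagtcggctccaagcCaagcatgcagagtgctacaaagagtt
Of the words of 100 bases in the Bcl2a1b transcript, 31.1% also occur in Bcl2a1d and 16.4% in Bcl2a1a. How reads that fit more than 1 copy were counted is not given in the sources used here, so the split of the signal between the copies is uncertain.

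Bcl2a1d was at 1.229, 2.20 and 3.091 CPM in WT ns (lowest, median, highest) and at 6.741, 10.7 and 124.4 in WT LPS. In KO ns it was at 1.067, 1.70 and 11.37, and in KO LPS at 5.489, 7.40 and 14.57. The WT treatments did not overlap, and in KO the single ns library inside the LPS range was KO ns 6. Bcl2a1d rose by 3.35 ± 0.59 on the log2 scale in WT (adjusted p 9.375e-05) and by 1.79 ± 0.48 in KO (adjusted p 0.006037). The difference between the genotypes in this response was -1.56 ± 0.74 and did not pass (adjusted p 0.7398). With single samples left out this difference ran from -1.77 to -0.55, and it was nearest to 0 without WT LPS 7. Without WT LPS 7, KO ns 5, KO ns 6 and KO LPS 5, Bcl2a1d rose by 2.18 ± 0.21 in WT and 2.29 ± 0.20 in KO. The copy Bcl2a1a gave 3.03 ± 0.51 in WT and 1.51 ± 0.42 in KO over 28 samples, and 2.00 ± 0.14 and 1.94 ± 0.13 without the 4.

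Bcl2a1b was at 25.48, 30.62 and 34.42 CPM in WT ns and at 44.36, 48.07 and 527.4 in WT LPS, again without overlap. In KO ns it was at 30.01, 37.64 and 196.9 and in KO LPS at 43.4, 53.61 and 123.3, and the highest of all 16 KO libraries was KO ns 6. It rose by 1.81 ± 0.52 in WT (adjusted p 0.008994), and the KO value of 0.16 ± 0.43 did not pass (adjusted p 0.8245). Without WT LPS 7, KO ns 5, KO ns 6 and KO LPS 5, Bcl2a1b rose in both, by 0.72 ± 0.10 in WT (adjusted p 1.415e-06) and 0.56 ± 0.09 in KO (adjusted p 1.211e-05). With WT LPS 7 alone left out, or with only the WT groups in the fit, Bcl2a1b no longer passed in WT.

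Among the libraries shown apart, WT ns 1 and WT ns 5 had 52.07 and 106.5 CPM of Bcl2a1b and 10.39 and 22.02 of Bcl2a1d. WT LPS 1 had 34.53 and 3.029 CPM, inside or just above the ns ranges, but WT LPS 6 had 182.7 and 11.78. WT LPS 6 also had 7.46% of its counts in mitochondrial genes, and the part of this in its levels was not tested. With every library in its labelled group the WT values were 1.27 ± 0.45 for Bcl2a1b (adjusted p 0.1318) and 1.76 ± 0.60 for Bcl2a1d (adjusted p 0.1298).

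Mcl1, on chromosome 3 (GRCm39, 95564017 to 95583553, plus strand), encodes a short-lived survival factor of the BCL-2 family. Its lowest, median and highest levels were 365, 381.5 and 447.2 CPM in WT ns and 602.6, 762.2 and 930.1 in WT LPS, with no overlap. In KO ns they were 151.8, 363.9 and 411.8, and in KO LPS 259.4, 650.4 and 696.1. The lowest KO libraries were KO ns 5 and KO LPS 5, and the other 7 KO LPS libraries were above every KO ns library. Mcl1 rose by 0.97 ± 0.21 in WT (adjusted p 0.0007031, 1.96-fold) and by 0.77 ± 0.18 in KO (adjusted p 0.001527, 1.71-fold). WT ns 1 was at 797.1 and WT ns 5 at 296.1 CPM, and WT LPS 1 and WT LPS 6 at 395.2 and 326.3. With them in their labelled groups the WT value was 0.65 ± 0.22 (adjusted p 0.131).

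Bcl2l11, the gene of the death-promoting protein BIM, lies on chromosome 2 (GRCm39, 127967958 to 128004467, plus strand) and was the 1 gene of the 10 that fell in both genotypes. In WT ns its lowest, median and highest levels were 58.73, 69.62 and 73.94 CPM, and in WT LPS 5.551, 21.28 and 34.84. In KO ns they were 34.78, 72.58 and 77.44, and in KO LPS 9.841, 23.39 and 41.87. The WT treatments did not overlap, and in KO only KO LPS 7 and KO ns 6 crossed. Bcl2l11 fell by 1.71 ± 0.30 on the log2 scale in WT (adjusted p 0.000113, a fold of 0.306) and by 1.43 ± 0.26 in KO (adjusted p 0.0001362, a fold of 0.372). Shown apart, WT ns 1 and WT ns 5 had 20.95 and 13.54 CPM, inside the LPS range, WT LPS 1 had 62.17, inside the ns range, and WT LPS 6 had 35.64, between the ranges. In their labelled groups they gave -1.01 ± 0.35 in WT (adjusted p 0.131).

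Bax, the pore-forming effector, lies on chromosome 7 (GRCm39, 45111124 to 45116332, minus strand). In WT ns it was at 40.06, 48.08 and 79.75 CPM and in WT LPS at 66.23, 78.38 and 173.2. In KO ns it was at 31.74, 46.91 and 97.19, and in KO LPS at 43.92, 60.01 and 74.07. The WT groups overlapped through WT ns 4, and in KO the highest level was in an ns library, KO ns 6. Bax rose by 0.78 ± 0.24 in WT (adjusted p 0.01452) and the KO value of 0.24 ± 0.21 did not pass (adjusted p 0.43). Without KO ns 5, KO ns 6, KO LPS 5 and WT LPS 7, Bax rose in both, by 0.51 ± 0.12 in WT (adjusted p 0.001137) and 0.42 ± 0.11 in KO (adjusted p 0.002975). With WT LPS 7 alone left out, or with WT ns 3 and WT ns 8 left out, the WT rise of Bax no longer passed. WT ns 1 and WT ns 5 had 68.07 and 45.9 CPM, WT LPS 1 and WT LPS 6 had 52.1 and 83.53, and in their labelled groups the WT value was 0.66 ± 0.21 (adjusted p 0.1194).

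Both library sets of the LPS experiment, told apart by the numbers that open the library names, were also fitted alone. In set 1, 8 of the 10 genes passed in WT (6 higher, 2 lower, with 42.6% of all genes) and 9 in KO (8 higher, 1 lower, with 45.3%). In set 2, which holds KO ns 5, KO ns 6, KO LPS 5 and WT LPS 7, 2 genes passed in WT (Zbp1 and Bcl2a1d, with 3.31% of all genes) and 2 in KO (Zbp1 and Mlkl, with 4.36%). All 10 WT values had the same sign in both sets, and in KO the sign differed for Bcl2a1b, at 0.58 in set 1 and -0.21 in set 2.

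LPS moved cell-type markers as well. Of 9 microglial markers, 6 fell in each genotype, and their summed level went from 22140 to 38800 CPM in WT ns to 16550 to 25220 in WT LPS, and from 33070 to 51020 in KO ns to 21090 to 26960 in KO LPS. B-cell markers fell too, 4 of 5 in WT and 3 of 5 in KO, with sums of 417.3 to 493.1 CPM in WT ns and 85.11 to 168.9 in WT LPS. Of 12 neutrophil markers, 3 fell in WT and 0 of 12 passed in KO, and sums were 2027 to 4932 CPM in KO LPS and 2297 to 13720 in WT LPS, where WT LPS 7 was highest. Border-associated macrophage markers fell for 2 of 7 in WT and 3 of 7 in KO. T and NK cell markers fell for 0 of 4 tested in WT and 3 of 4 in KO. Endothelial markers fell for 2 of 2 tested in WT and 1 of 2 in KO, and oligodendrocyte markers for 1 of 2 in each. Of 3 astrocyte markers 1 rose in WT and 2 in KO, and of 6 monocyte markers 1 rose and 1 fell in each. Over all genes 15.9% passed as lower in WT and 15.6% in KO. No marker list had a member at 0 in every library of a group. The part of these shifts in the results for the 10 genes was not tested.

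The surrounding pathway was followed in 58 other genes in 4 lists, of which 56 were tested in the LPS experiment. In KO 19 of the 56 passed with LPS and in WT 18, that is, 14 higher and 5 lower in KO and 12 higher and 6 lower in WT. Over all genes 28.9% passed in KO and 30.9% in WT, so with both directions together the lists lie near the background. By direction, 13.4% of all genes passed as higher and 15.6% as lower in KO, and 15% and 15.9% in WT. The calls among the 56 leaned toward higher, and those over all genes did not. Among 8 death receptors and their ligands, Tnf, the cytokine that engages RIPK1 through its receptor, rose by 4.20 ± 0.37 in KO and 4.80 ± 0.44 in WT. Its levels ran from 2.903 to 5.808 CPM in KO ns and from 47.42 to 146.3 in KO LPS, without overlap. The death receptor Fas rose in WT, at 1.93 ± 0.49, and in KO its value of 0.94 ± 0.42 did not pass (adjusted p 0.09205). Without KO ns 5, KO ns 6, KO LPS 5 and WT LPS 7, Fas rose in both, by 1.00 in WT and 0.93 in KO.

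Of 20 partners in the TNF receptor complex and the necrosome, 6 rose and 1 fell in KO, and 3 rose and 1 fell in WT. Tnfaip3, whose product A20 edits ubiquitin on RIPK1, rose by 1.97 ± 0.20 in KO and 2.25 ± 0.23 in WT. Birc3, a ubiquitin ligase for RIPK1, rose by 1.19 ± 0.14 and 1.38 ± 0.17, and Eif2ak2, the kinase PKR that senses double-stranded RNA, by 1.79 ± 0.19 and 1.06 ± 0.22. Adar, an RNA-editing enzyme that limits ZBP1 activation, rose by 1.17 ± 0.36 in KO, and its WT value of 0.72 ± 0.41 did not pass (adjusted p 0.1943). Tab2, an adaptor of the kinase TAK1, fell by 0.42 ± 0.16 in KO and by 0.56 ± 0.18 in WT. Cflar, whose product inhibits caspase-8, rose by 0.30 ± 0.11 in KO, and its WT value of 0.18 ± 0.13 did not pass. The adaptor gene Fadd was at -0.25 ± 0.10 in KO and -0.18 ± 0.11 in WT and did not pass in either (adjusted p 0.05642 and 0.2523). Without KO ns 5, KO ns 6, KO LPS 5 and WT LPS 7, 11 of the 20 rose in each genotype, with 3 lower in KO and 2 lower in WT, in a fit where 54.8% of all genes passed in KO and 54.1% in WT.

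Among 11 tested genes of 13 other BCL-2 family members, 3 rose and 1 fell in KO, and 1 rose and 2 fell in WT. Bcl2a1a rose in both genotypes. Bid, a BH3-only gene whose product caspase-8 cleaves, fell in both, by 0.62 ± 0.11 in KO and 0.63 ± 0.13 in WT. The effector Bak1 rose by 0.68 ± 0.25 in KO, where the survival gene Bcl2 also rose, by 0.51 ± 0.19. Their WT values were 0.47 ± 0.28 for Bak1 and 0.29 ± 0.21 for Bcl2, and neither passed (adjusted p 0.2198 and 0.3235). Leaving KO ns 5, KO ns 6, KO LPS 5 and WT LPS 7 aside gave 5 higher and 1 lower in KO and 6 higher and 2 lower in WT, with the same 54.8% and 54.1% of all genes passing.

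Of 17 other caspases, apoptosome genes and gasdermins, 4 rose and 3 fell in KO, and 6 rose and 3 fell in WT. Casp12 fell by 1.48 ± 0.29 in KO and 1.21 ± 0.34 in WT, and the gasdermin Gsdme by 0.71 ± 0.19 and 0.84 ± 0.22. Casp6 fell by 0.85 ± 0.21 in KO, and its WT value of -0.36 ± 0.24 did not pass (adjusted p 0.2726). In the other direction, Casp4, the sensor of intracellular LPS, rose by 0.75 ± 0.29 in KO and 1.42 ± 0.34 in WT, the apoptosome scaffold Apaf1 by 0.66 ± 0.14 and 0.46 ± 0.16, Endog by 0.65 ± 0.22 and 1.07 ± 0.25, and Aifm1 by 0.49 ± 0.16 and 0.70 ± 0.19. Leaving KO ns 5, KO ns 6, KO LPS 5 and WT LPS 7 aside gave 6 higher and 6 lower in KO and 6 higher and 7 lower in WT, again beside 54.8% and 54.1% of all genes. With every library in its labelled group, 0 genes of the 4 lists passed in WT, as for all genes.

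**Figure D3:**
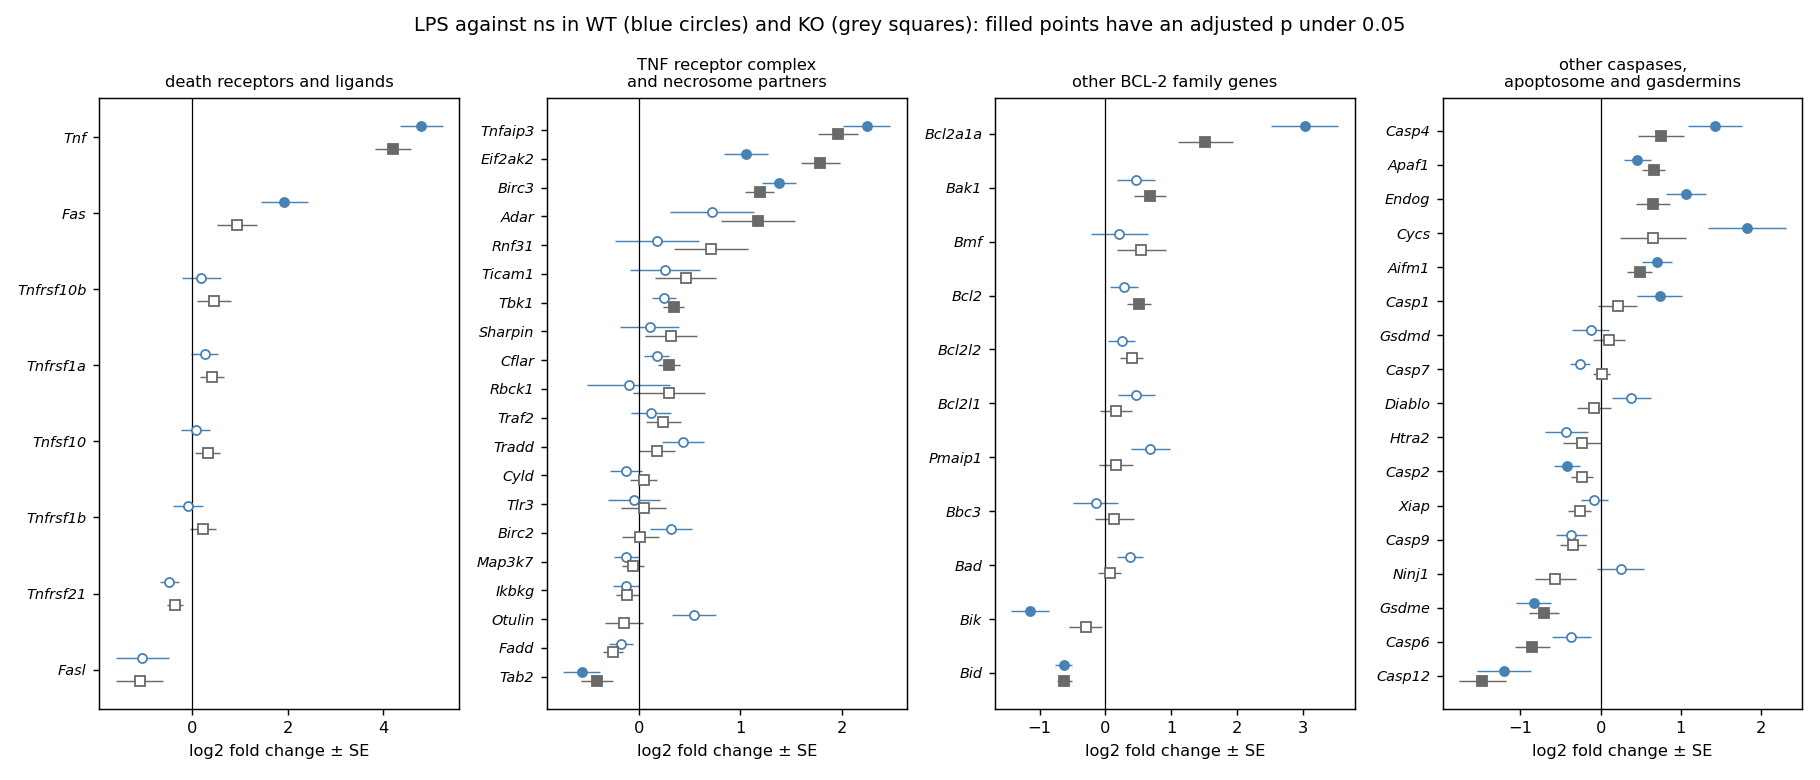
Log2 fold change of LPS against ns with its SE for the tested genes of 4 lists around the death pathways, in WT (blue circles) and KO (grey squares), ordered by the KO value and filled where the adjusted p is under 0.05. Tnf lies farthest right, at 4.80 in WT and 4.20 in KO, and Casp12 lies at the left end of the last list.

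None of the 10 genes passed between KO and WT in the LPS experiment. At ns 15 of 16088 genes passed (0.0932%) and 0 of the 10, and under LPS 11 passed (0.0684%) and 0 of the 10. DESeq2 also called 0 of the 10 in both comparisons. At an unadjusted p under 0.05 there was 1 of the 10 at ns (Mlkl), against 9.35% of all genes, and 4 under LPS (Bcl2a1d, Bax, Ripk3 and Mcl1), against 6.38%, all lower in KO. P2ry12 itself passed in both, at -2.62 ± 0.21 and -2.46 ± 0.21. With every library in its labelled group the shares were 0.114% and 0.126%, and 0 of the 10 passed. Leaving aside KO ns 5, KO ns 6, KO LPS 5 and WT LPS 7 gave shares of 0.392% at ns and 0.286% under LPS, leaving aside WT ns 3 and WT ns 8 gave 0.0425% and 0.079%, and 0 of the 10 passed in either fit. KO and WT libraries overlapped for all 10 genes under both treatments, while 0.839% of all genes did not overlap at ns and 0.261% under LPS.

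Several of these differences changed in size when a few libraries were left aside. At ns Mlkl differed by -1.10 ± 0.39 (adjusted p 0.4377), and by -0.06 ± 0.34 with WT ns 3 and WT ns 8 left aside. Bcl2a1b at ns was higher in KO by 0.81 ± 0.47, where 6 of 8 KO libraries were above all WT libraries, and it did not pass (adjusted p 0.57). Without KO ns 5, KO ns 6, KO LPS 5 and WT LPS 7 that value was 0.23 ± 0.09. Under LPS Bcl2a1d differed by -1.45 ± 0.51 (adjusted p 0.5289), Bcl2a1b by -0.84 ± 0.47 and Bax by -0.56 ± 0.22, and with WT LPS 7, KO LPS 5, KO ns 5 and KO ns 6 left aside these became -0.44 ± 0.19 for Bcl2a1d, 0.08 ± 0.09 for Bcl2a1b and -0.22 ± 0.12 for Bax. For Ripk3 the values were -0.37 ± 0.15 and -0.29 ± 0.12, and for Mcl1 -0.40 ± 0.19 and -0.22 ± 0.09. Bcl2a1d at ns was at 0.12 ± 0.52 over 28 samples and at -0.54 ± 0.21 without the same 4 libraries. Zbp1 differed by -0.32 ± 0.23 at ns and 0.20 ± 0.22 under LPS, Ripk1 by -0.06 ± 0.10 and -0.07 ± 0.10, Casp8 by 0.05 ± 0.14 and 0.18 ± 0.15, and Bcl2l11 by -0.10 ± 0.28 and 0.18 ± 0.28. A miss of the threshold does not show that the genotypes act alike, and differences well beyond their SE, such as those of Mlkl at ns and Bcl2a1d under LPS, did not pass.

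With every library in its labelled group, several genotype values were of another size or sign. At ns Zbp1 was then at -1.43 ± 0.43 (adjusted p 0.2352), Mlkl at -1.41 ± 0.38 (adjusted p 0.1597), Bcl2a1d at -1.16 ± 0.59 and Bcl2a1b at 0.36 ± 0.44, and Ripk1, Ripk3, Casp8, Mcl1, Bcl2l11 and Bax were between -0.43 and 0.20. Under LPS Bcl2a1d was at -1.11 ± 0.60, Bcl2a1b at -0.73 ± 0.45, Zbp1 at 0.51 ± 0.42 and Bax at -0.47 ± 0.21, and the other 6 were between -0.22 and 0.06. The sign thus turned at ns for Bcl2a1d and for Bcl2l11, which went from -0.10 to 0.20. Under LPS it turned for Bcl2l11, from 0.18 to -0.22, and for Mlkl and Ripk1.

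Whether loss of P2RY12 altered the response to LPS was tested as the interaction of genotype and treatment. No gene passed (0 of 16088, 795 at an unadjusted p under 0.05), and the share was 0%. With KO ns 5, KO ns 6, KO LPS 5 and WT LPS 7 left aside it was 0.00622%, and 0 of the 10 passed. Among the 10, Bcl2a1b and Bcl2a1d had an unadjusted p under 0.05, with interactions of -1.65 ± 0.67 and -1.56 ± 0.74 (both adjusted p 0.7398), against 4.94% of all genes, and DESeq2 called 0 of the 10. Mlkl was at 0.98 ± 0.54, Zbp1 at 0.52 ± 0.32, Bax at -0.54 ± 0.32, and the other 5 were within 0.28 of 0. With every library in its labelled group the interactions differed: Zbp1 was at 1.94 ± 0.60 and Mlkl at 1.47 ± 0.52 (both adjusted p 0.4159), Bcl2a1d at 0.04 ± 0.81, Bcl2a1b at -1.09 ± 0.63, and the other 6 were between -0.42 and 0.29. Of these only Zbp1 and Mlkl had an unadjusted p under 0.05, beside 1698 of all 15857 genes in that fit, and none of the 10 passed. Bax, Bcl2a1b and Mlkl passed with LPS in 1 genotype only, and a difference in their response was not shown. The comparisons of genotype and of treatment share their groups of libraries, and their values are set side by side only.

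**Figure D4:**
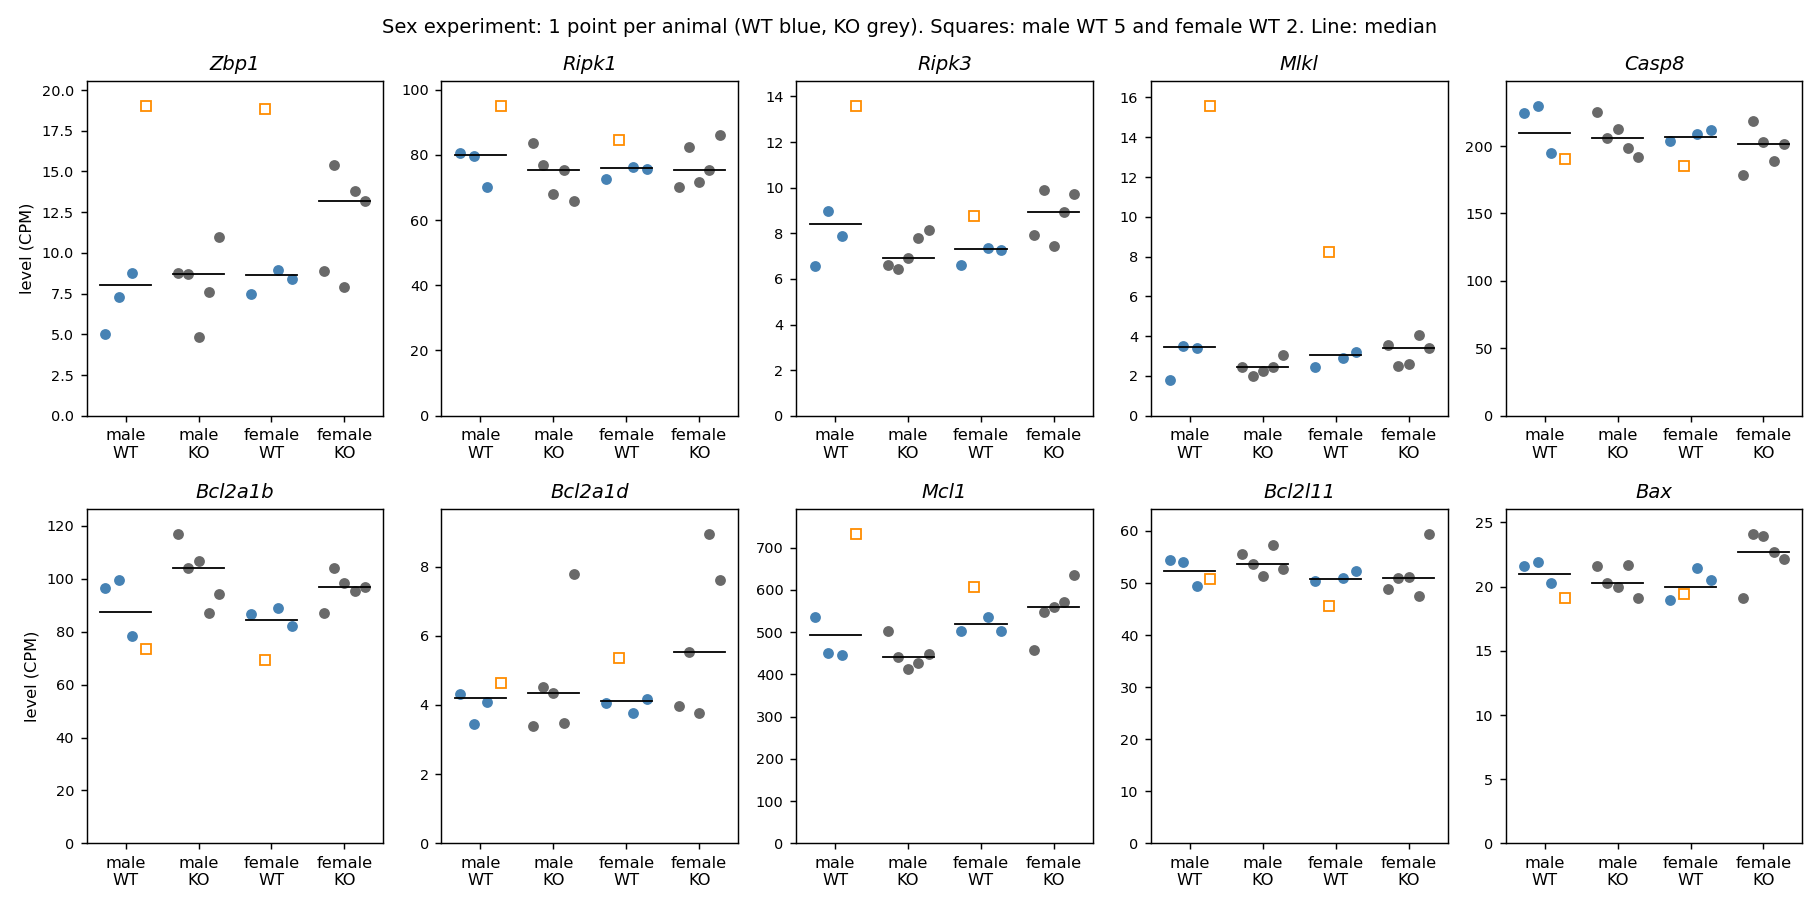
Level of each gene in CPM (linear axis from 0) in each of the 18 animals of the sex experiment, with the group median as a line and male WT 5 and female WT 2, the animals with the highest neutrophil and monocyte marker sums, as orange squares. These 2 animals stand above their groups for Zbp1 and Mlkl (15.58 and 8.206 CPM of Mlkl against at most 4.062 in the other 16).

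The sex experiment compared KO with WT in males and females. In males 3 of 31709 genes passed (0.00946%), in females 52 (0.164%) and averaged over the sexes 137 (0.432%), and 0 of the 10 passed in any of them. DESeq2 called 0 of the 10 as well. Without male WT 5 and female WT 2 the shares were 0.0125% in males, 0.602% in females and 0.969% averaged over the sexes, again with 0 of the 10. At an unadjusted p under 0.05 there were 4 of the 10 in males (Mlkl, Bcl2a1b, Mcl1 and Ripk3), 1 in females (Bcl2a1b) and 2 averaged over the sexes (Bcl2a1b and Mlkl). The shares over all genes were 6.85%, 5.22% and 9.02%. No gene of the table passed the interaction of sex and genotype (0%, with 879 or 2.77% at an unadjusted p under 0.05, among them Ripk3 of the 10). KO and WT animals overlapped for all 10 genes in both sexes, while 1.97% of all genes did not overlap in males and 2.19% in females.

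Mlkl was at 1.795, 3.489, 3.395 and 15.58 CPM in the male WT animals and at 2.428, 1.997, 2.269, 2.436 and 3.049 in male KO. In females it was at 2.471, 8.206, 2.891 and 3.226 in WT and at 3.552, 2.494, 2.578, 4.062 and 3.393 in KO. Only male WT 5 and female WT 2 stood clear of the other 16 animals. In males the difference was -1.32 ± 0.50, with an adjusted p of 0.7187. The female value was -0.38 ± 0.50 and did not pass. The summed neutrophil markers were 50740 CPM in male WT 5 and 30210 in female WT 2, against 1475 to 8586 in the others. Their monocyte marker sums were also the highest, 3838 and 2208 CPM, against 99.75 to 583.1. The part of either cell type in the Mlkl counts was not tested. Without those 2 animals Mlkl differed by -0.25 ± 0.22 in males and 0.17 ± 0.22 in females.

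Zbp1 showed the same 2 animals on top, with 5.033, 7.304, 8.74 and 19.03 CPM in male WT and 7.459, 18.81, 8.931 and 8.397 in female WT. Male KO animals had 8.783, 8.717, 4.824, 7.597 and 10.98 CPM, and female KO animals 8.906, 15.38, 7.896, 13.83 and 13.18. All groups overlapped. The KO difference was -0.30 ± 0.37 in males and 0.12 ± 0.37 in females, and without male WT 5 and female WT 2 it was 0.22 ± 0.26 and 0.52 ± 0.26, none of which passed. Ripk3 was highest in male WT 5, at 13.59 CPM against 6.438 to 9.878 in the other 17 animals. Its difference went from -0.37 ± 0.17 in males over all animals to -0.12 ± 0.13 without the 2, and in females from 0.23 ± 0.17 to 0.31 ± 0.13.

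Of the 10 genes, the survival gene Bcl2a1b had the lowest adjusted p for genotype in this experiment. It was at 96.51, 99.4, 78.36 and 73.54 CPM in male WT and at 117.1, 104.2, 106.9, 87.2 and 94.34 in male KO. In females it was at 86.83, 69.37, 88.84 and 82.33 in WT and at 86.94, 104.2, 98.54, 95.48 and 96.93 in KO, where 4 of the 5 animals were above every female WT animal. Averaged over the sexes the difference was 0.23 ± 0.07, and it did not pass (adjusted p 0.2743). Without male WT 5 and female WT 2, which had the lowest Bcl2a1b of their groups, it was 0.16 ± 0.07 (adjusted p 0.4804). The copy Bcl2a1a differed by 0.35 ± 0.09 (adjusted p 0.1505). Bcl2a1d ran from 3.398 to 8.954 CPM over all 18 animals and differed by 0.32 ± 0.18, and in this table the predicted gene Gm10634 lies over all of it on the opposite strand.

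Mcl1 was between 444.7 and 733.3 CPM in male WT and between 413 and 503.2 in male KO, the highest value being that of male WT 5. In females it was between 501.9 and 606.9 in WT and between 458.3 and 635.1 in KO. Its difference was -0.28 ± 0.12 in males, with an adjusted p of 0.7187, and 0.05 ± 0.13 in females. In males it was -0.09 ± 0.10 without male WT 5 and female WT 2. The remaining 4 genes varied little between animals. Ripk1 stayed between 65.91 and 95.01 CPM, Casp8 between 178.4 and 229.8, Bcl2l11 between 45.66 and 59.5 and Bax between 18.99 and 24.14. Their differences averaged over the sexes were -0.07 ± 0.06 for Ripk1, -0.03 ± 0.06 for Casp8, 0.05 ± 0.05 for Bcl2l11 and 0.07 ± 0.06 for Bax.

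Between the genotypes none of the 58 other pathway genes passed either. The edgeR test called 0 of them in males, in females, averaged over the sexes, at ns and under LPS, with 4, 4, 9, 4 and 7 at an unadjusted p under 0.05 in that order, where the shares over all genes were 6.85%, 5.22%, 9.02%, 9.35% and 6.38%. The interaction of genotype and LPS likewise gave 0 calls among the 56 tested there, with 5 at an unadjusted p under 0.05, against 4.94% of all genes.

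**Figure D5:**
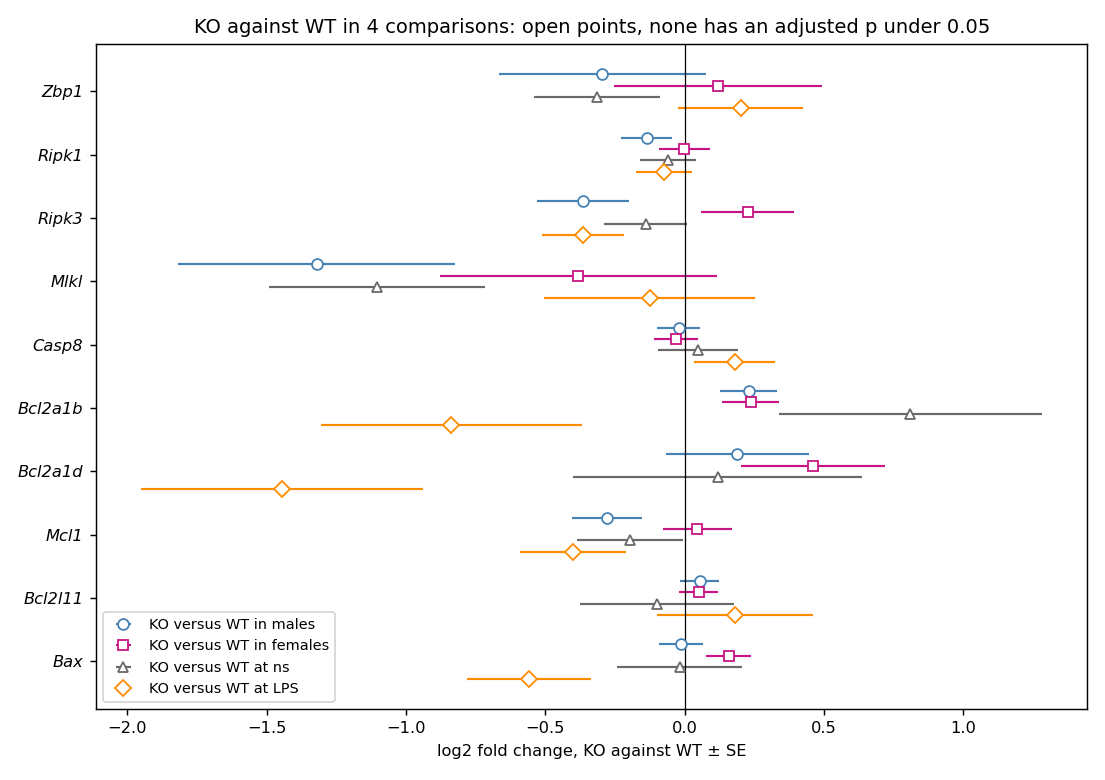
Log2 fold change of KO against WT with its SE for the 10 genes in males, in females, at ns and under LPS. No point has an adjusted p under 0.05, and in the LPS experiment the widest bars belong to Bcl2a1b, Bcl2a1d and Mlkl (SE 0.38 to 0.52), against 0.10 for Ripk1.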

How the data were processed

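Polyadenylated RNA was sequenced on a NovaSeq instrument, per the labels' protocols. The authors deposited 1 table of raw counts per gene for each experiment, with 18 and 33 columns, and 0 columns were left without a sample. The labels list 57 libraries, and 6 repeat libraries of the sex experiment were not analysed here. The submitters' processing notes name GRCm39, FastQC, STAR 2.6.1, featureCounts, Subread and DESeq2 without a role, and the handling of strand and of reads that fit several genes is not given in the sources used here. In the sex experiment even numbers made up 79% to 89.2% of each library's counts between 1 and 20, and in the LPS experiment 39.7% to 45.6%, so the tables were never fitted together.

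Counts were filtered with filterByExpr, which kept 31709 and 16088 genes, scaled by TMM and tested with edgeR 4.0.16 (R 4.3.3; robust quasi-likelihood F test, 1 mean per group, library set as covariate in the LPS experiment). Benjamini-Hochberg adjustment of p-values ran over all genes of a contrast, and a gene passes under 0.05. The SE is the absolute log2 fold change over the square root of F. Scaling used all 32 samples of the LPS experiment, and its fit used 28. WT LPS 8 and WT LPS 9 were summed because chi-square over degrees of freedom was 1.86 between their counts, above sampling noise but far under the 8.32 of the next closest pair of a group. Levels are CPM of TMM-scaled totals. The median total was 92.04 M counts per animal in the sex experiment and 24.68 M per library in the LPS experiment.

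The steps were tested on simulated data: of 100 genes changed 2-fold, 77% were recovered for KO against WT averaged over the sexes (30960 genes) and 50% for LPS against ns in KO (15836 genes), and of 100 changed 4-fold 99% and 100%. The changed genes were drawn only from genes above a floor of expected counts. No outlying library and no other contrast was simulated, so these shares do not give the recovery for the 10 genes in the real data. The genes, lists and tests were chosen with earlier results of these data known. All 10 genes were named, with Bcl2a1a as their near copy, P2ry12 and Saa3 as label checks, and from each pathway list up to 4 genes called higher and 4 called lower in KO with the largest change; Fas, Fadd and Cflar were added after their values were seen, and 1 gene of the lists is not reported here. Alternatives were DESeq2 1.42.0, RLE scaling, other filters, a replicate block, fewer groups or library sets, libraries in their labelled groups and samples left out.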

Additional observations from a re-analysis of the deposited data

Results flagged for a closer look

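For each gene and each group of 4 to 8 samples, the gap between an extreme sample and its nearest neighbour was compared with the whole range of the group (Dixon's criterion at the 95% level). This marked 17 of 80 pairs of a gene and a group. The criterion marks about 1 in 20 by chance only for independent, normally distributed values. Levels were not logged here and the pairs share libraries, so the count is descriptive only. Of the 17, 12 fell in the libraries KO ns 5, KO ns 6, KO LPS 5 and WT LPS 7, whose counts correlated least with their own groups.

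KO ns 6 was the highest of its group for Bcl2a1b (196.9 CPM), Bcl2a1d (11.37 CPM) and Bax (97.19 CPM) and the lowest for Ripk1 (45.85 CPM). WT LPS 7 was the highest of its group for the same 3 genes, with 527.4 CPM of Bcl2a1b, 124.4 CPM of Bcl2a1d and 173.2 CPM of Bax. KO LPS 5 was the highest for Bcl2a1b (123.3 CPM), Bcl2a1d (14.57 CPM) and Casp8 (282.2 CPM) and the lowest for Mcl1 (259.4 CPM). KO ns 5 was the lowest of its group for Mcl1 (151.8 CPM). WT ns 4 was the highest of its group for Bax, at 79.75 CPM.

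In the sex experiment female WT 2 was the highest of its group for Zbp1 (18.81 CPM) and Mlkl (8.206 CPM), and male WT 5 for Mlkl (15.58 CPM). Male KO 5 was the highest of its group for Bcl2a1d, at 7.794 CPM.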

How the results depend on the processing

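Every value of the 10 genes and of Bcl2a1a, P2ry12 and Saa3 was recomputed where a setting applied. The number of the 10 genes that passed with LPS moved most with the choice of libraries. It was 0 in WT with every library in its labelled group, and within library set 2 alone it was 2 in WT and 2 in KO; the cause was not tested. Leaving out each sample in turn gave 7 to 9 genes in WT and 7 to 8 in KO. Without WT LPS 7, Bcl2a1b and Bax no longer passed in WT and Casp8 did. Without WT ns 3, WT ns 8 or KO ns 6, Mlkl passed in WT. Without KO LPS 5, Casp8 passed in both genotypes, and without KO LPS 7, KO ns 5 or WT LPS 4 it passed in WT. The settings that left aside KO ns 5, KO ns 6, KO LPS 5 and WT LPS 7, WT ns 3 and WT ns 8, or male WT 5 and female WT 2 were chosen after seeing the data, as was leaving out each LPS-experiment sample in turn. DESeq2 gave 9 in WT, with Mlkl added, and 7 in KO, where it called 5696 and 5221 of all 16088 genes. A filter at a mean of 5 CPM removed Mlkl, and gave 9 in WT and 6 in KO, with 3325 and 3063 of 10425 genes called. With only the WT groups in the fit, Casp8 passed and Bcl2a1b did not. Between the genotypes 0 of the 10 passed under every setting run. Counts over all genes moved more: DESeq2 called 57 under LPS, 50 at ns, 27 in males, 210 in females and 358 averaged over the sexes, against 11, 15, 3, 52 and 137. Of 3057 recomputed gene values over 61 settings, 27 newly passed, 24 no longer passed, and no value that passed changed its sign.

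With the replicate number as a block, 10 genes passed with LPS in WT and 8 in KO (5759 and 5577 of all genes), and 0 between the genotypes. In the LPS experiment samples with the same set and number deviated together at a mean r of 0.254 (-0.313 to 0.889), against 0.0332 for other pairs. KO ns 5 and KO LPS 5 share a set and number, as do KO ns 6 and WT LPS 7. The part of these outlying libraries in that mean was not tested. In the sex experiment the mean was 0.0994 for the same number (-0.538 to 0.541), against -0.0193. Of 28 and 18 samples, 12 and 3 correlated best with their own number. On average samples of the same number thus deviated together more than others in the LPS experiment. In the sex experiment the means lay close together beside a range of -0.538 to 0.541. The numbers share no stated origin, so the block was kept as an alternative only. In KO ns, the library with the lowest Mlkl held 7 reads of it, which limits the precision there.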
